A study of Mus musculus with 16 samples.

Results

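Mouse dorsal skin was examined for 9 genes that make and process the ceramides of the epidermal permeability barrier, chosen by name as the rows Elovl1, Elovl4, Cers3, Pnpla1, Abhd5, Alox12b, Aloxe3, Ugcg and Abca12 of the count tables, 9 of 23282 rows. Each had 1 row and passed the filter on low counts, as did 14854 rows in all. The study asked how a diet low in ligands of the aryl hydrocarbon receptor (AhR), dermatitis and a herbal extract affect the skin barrier. Wild-type male C57BL/6N mice, bought at 3 weeks of age and adapted for 1 week, formed 4 groups of 4 libraries (1 library per mouse, 16 in all, from mice drawn at random from larger groups). Cont mice ate normal chow. LowAhR mice ate the low AhR ligand diet on paper bedding for 12 weeks. LowAhR+AD mice ate this diet and, after 2 weeks of it, had 1% 2,4-dinitrochlorobenzene (DNCB) in acetone and olive oil applied to the back 2 times a week. LowAhR+AD+BJ mice had the diet and DNCB plus Bojungikgi-tang (BJIKT), a water extract of several herbs, by gavage at 1 g/kg a day for the same 10 weeks. No group had DNCB without the diet, none had BJIKT without DNCB, and the sources used here do not state whether mice without DNCB received its solvent or those without BJIKT a gavage of water.

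In the granular layer of the epidermis, very long fatty acids are lengthened, joined to a sphingoid base to form ceramides, and capped with linoleate. The resulting acylceramides are stored as glucosylceramides in lamellar bodies, released between the cells, oxidised by lipoxygenases and bound to the proteins of the cornified envelope. Loss of any of several of these enzymes is a known cause of ichthyosis, a group of scaling skin disorders. The AhR is a ligand-activated transcription factor that is active in keratinocytes, and DNCB is a contact sensitiser used to model atopic dermatitis.

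The libraries held 7080508 to 13467477 counts of 3′ end reads, from 7080508 to 8051425 in Cont and 7436315 to 8773876 in LowAhR, against 11336051 to 13467477 in LowAhR+AD and 10614393 to 12999055 in LowAhR+AD+BJ. Levels are given as CPM, the count of a gene scaled to the size of its library with TMM factors, and they are compared only between groups within a gene. A gene is called here when its adjusted p in edgeR's quasi-likelihood test was below 0.05 over all tested rows. Whole skin was sequenced, so fewer cells of a type and less RNA per cell cannot be told apart. Markers of other cell types differed between the groups. The summed level of 15 hair follicle markers was 26.2 to 1058 CPM in Cont, 109 to 13200 in LowAhR, 6958 to 36106 in LowAhR+AD and 7874 to 24188 in LowAhR+AD+BJ. That of 9 adipocyte markers was 9016 to 13505 CPM in LowAhR and 594 to 4396 in LowAhR+AD, and that of 9 skeletal muscle markers 8403 to 21387 and 427 to 3556. LowAhR also stood apart from Cont, with no overlap in the adipocyte markers (3334 to 6665 CPM in Cont) and the macrophage markers (474 to 1045 CPM in Cont and 1212 to 1371 in LowAhR). Of 7 neutrophil markers only 4 were tested, and all 4 were called higher in LowAhR+AD than in Cont. Of 6 fibroblast markers 3 were called lower, where 21.8% of all tested genes were called and 9.47% were called lower. The part of these tissues in the results below was not tested.

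The genes lie on 6 chromosomes of the mouse genome (positions from GENCODE M21, build GRCm38). Aloxe3 (chr11:69125896-69149115) and Alox12b (chr11:69156989-69169792) stand on the plus strand with 7873 bases and no other annotated gene between them. Elovl1 (chr4:118428093-118432953) and Ugcg (chr4:59189257-59222833) are both on chromosome 4, and Elovl4 (chr9:83778692-83806277) and Abhd5 (chr9:122351608-122381524) both on chromosome 9. Cers3 (chr7:66743504-66823691), Pnpla1 (chr17:28858411-28890309) and Abca12 (chr1:71242276-71414910) lie alone. The last exon of Elovl1 overlaps that of the mitotic gene Cdc20 on the other strand, and the last exon of Abhd5 overlaps the antisense transcript A730085K08Rik. Pnpla1 overlaps the antisense transcript Pnpla1os outside its last exon. How strand was used in the counting is not given in the sources used here, so reads in these overlaps may belong to either gene. Cdc20 itself stood at 5.72 to 33.7 CPM over the 16 libraries and A730085K08Rik at 0 to 1.82 CPM.

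The 250 bases before the RefSeq start were available for 8 of the 9 genes (9 starts, with 2 for Elovl1 and none for Aloxe3) and were searched on both strands for the core of the xenobiotic response element that AhR binds (GCGTG), a KLF core (CACCC), a GRHL site (AACNGGTT), an AP-1 site (TGANTCA), a nuclear receptor motif (AGGTCA) and a TATA box (TATAAA). The AhR core is in 28.2% of 32851 mouse promoters of this length, the KLF core in 52.0%, the nuclear receptor motif in 14.0%, the TATA box in 12.4%, the AP-1 site in 6.75% and the GRHL site in 1.79%. Pnpla1 held 3 AhR cores, Ugcg 2 and Abhd5 1. Alox12b, Cers3, both Elovl1 starts, Elovl4 and Abca12 held none, and the AP-1, GRHL and TATA letters were in none of the 9 windows. The KLF core was found once in Alox12b, Cers3 and Ugcg, 2 times in Pnpla1 and 3 times at each Elovl1 start, and the nuclear receptor motif once in Cers3, Abhd5 and the second Elovl1 start, which is not shown. These matches describe the letters only. Shown are 3 genes whose level passed the test in a comparison, and Pnpla1 for its AhR cores, 5′ to 3′, cut where the GENCODE gene begins (RefSeq, GRCm38.p6). Capitals mark the AhR core, the KLF core and the nuclear receptor motif, on either strand.
Alox12b promoter, chr11:69156822-69156988, plus strand: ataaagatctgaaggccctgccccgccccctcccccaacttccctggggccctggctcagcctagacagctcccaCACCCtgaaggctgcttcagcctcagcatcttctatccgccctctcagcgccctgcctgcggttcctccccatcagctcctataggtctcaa
Elovl1 promoter, chr4:118427843-118428092, plus strand: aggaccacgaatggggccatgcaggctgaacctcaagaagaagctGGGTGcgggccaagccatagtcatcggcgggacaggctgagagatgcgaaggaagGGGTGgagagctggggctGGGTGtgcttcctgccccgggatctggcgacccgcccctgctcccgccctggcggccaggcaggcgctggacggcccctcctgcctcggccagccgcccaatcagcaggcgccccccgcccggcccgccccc
Cers3 promoter, chr7:66743254-66743503, plus strand: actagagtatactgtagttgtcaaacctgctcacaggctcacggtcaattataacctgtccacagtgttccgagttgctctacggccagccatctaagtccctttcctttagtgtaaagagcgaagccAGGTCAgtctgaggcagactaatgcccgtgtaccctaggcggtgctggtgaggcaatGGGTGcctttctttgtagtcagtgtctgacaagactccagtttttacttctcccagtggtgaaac
Pnpla1 promoter, chr17:28858161-28858410, plus strand: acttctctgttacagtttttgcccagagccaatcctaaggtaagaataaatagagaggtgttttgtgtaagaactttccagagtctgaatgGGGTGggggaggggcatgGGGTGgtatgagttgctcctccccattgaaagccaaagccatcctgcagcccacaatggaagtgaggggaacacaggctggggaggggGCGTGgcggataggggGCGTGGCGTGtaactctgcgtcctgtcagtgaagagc

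Against Cont, the lipoxygenases had the largest fitted change of the 9 genes in both DNCB groups. Alox12b oxidises the linoleate of acylceramides, and Aloxe3 converts the product for attachment to protein. Alox12b stood at 73.4, 49.4, 86.5 and 69.1 CPM in the 4 Cont libraries, at 37.2, 68.1, 50.3 and 22.3 in LowAhR, at 7.86, 17.5, 40.1 and 9.64 in LowAhR+AD and at 6.94, 16.3, 20.9 and 22.7 in LowAhR+AD+BJ. All 8 libraries of the DNCB groups were below all 4 Cont libraries, while LowAhR overlapped both Cont and LowAhR+AD. Aloxe3 stood at 119, 74.8, 95.9 and 79.5 CPM in Cont, at 40.9, 64.0, 59.1 and 33.3 in LowAhR, at 25.3, 29.5, 61.8 and 14.4 in LowAhR+AD and at 12.1, 24.6, 32.3 and 21.6 in LowAhR+AD+BJ. Here each of the 12 libraries on the diet was below each Cont library. The group means ran in the same order for both genes, Cont above LowAhR above LowAhR+AD above LowAhR+AD+BJ, but of the neighbours in this order only Cont and LowAhR differed without overlap, and only for Aloxe3 (two-sided exact permutation p = 0.0286 against 0.114 for Alox12b).

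**Figure D1:**
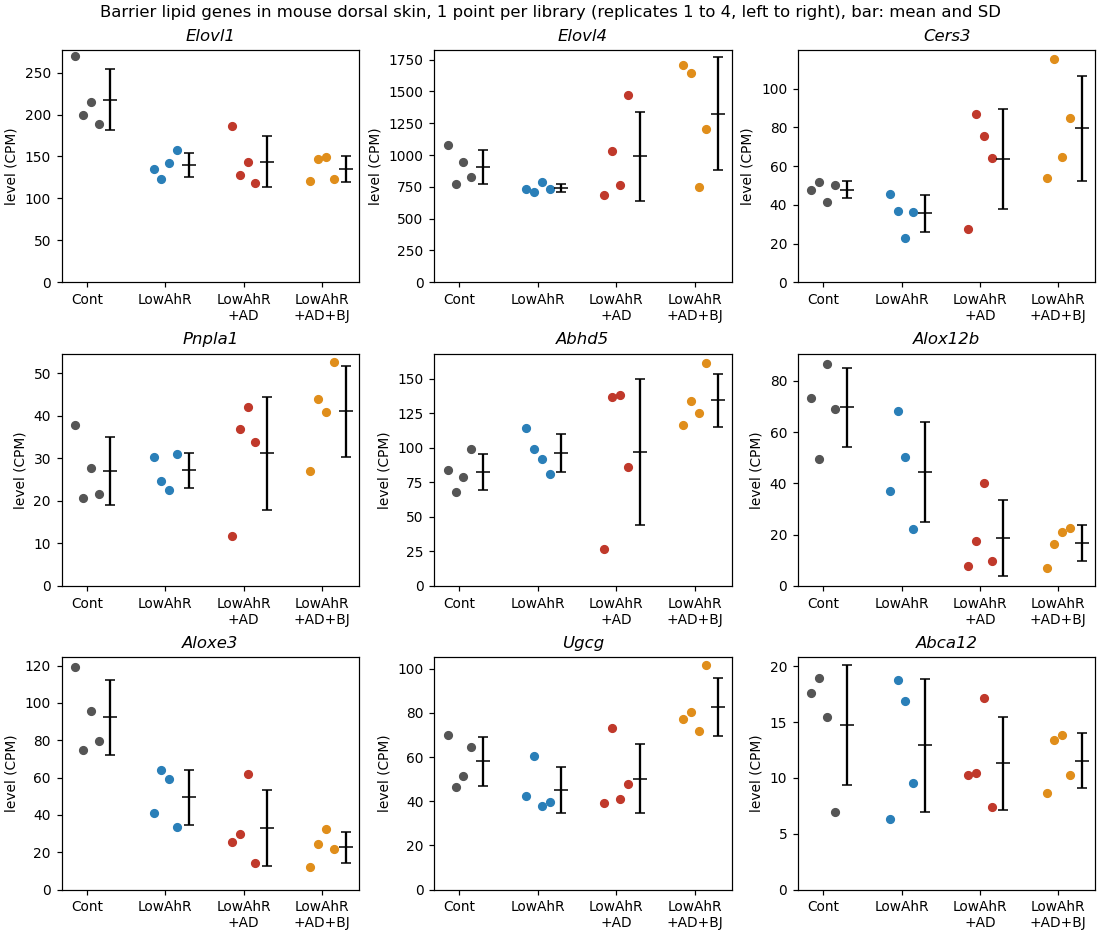
Level of the 9 barrier lipid genes in CPM (vertical axis, from 0) in each of the 4 libraries of the 4 groups (points), with the group mean and SD (black bars). Alox12b and Aloxe3 lie lower in both DNCB groups than in every Cont library, and Elovl1 lower in all 3 groups on the diet, while Ugcg is highest in LowAhR+AD+BJ.

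Against Cont, LowAhR+AD skin had 3.71 times less Alox12b (log2 fold change -1.89 ± 0.47 SE, edgeR adjusted p = 0.00871) and 2.82 times less Aloxe3 (-1.49 ± 0.38, adjusted p = 0.00902). Elovl1, an elongase of saturated very long chain fatty acids, fell by 0.60 on the log2 scale (SE 0.19, edgeR adjusted p = 0.0309). These 3 of the 9 genes were called, all lower, where 21.8% of all tested genes were called and 9.47% were called lower. The same 3 genes did not overlap between the groups, against 24.7% of all tested genes (two-sided exact permutation p = 0.0286, the smallest that 4 against 4 allows). The other 6 genes lay between -0.38 (Abca12) and 0.41 (Cers3), with adjusted p of 0.382 or more in edgeR, and the median of the 9 was -0.21 against 0.05 over all tested genes. Both lipoxygenases stayed called without any 1 of the 8 libraries, and without LowAhR+AD 3 the change of Alox12b was -2.58 (adjusted p = 0.00101). Elovl1 was no longer called without Cont 1 (adjusted p = 0.106), Cont 3 (0.0615), LowAhR+AD 2 (0.0842), LowAhR+AD 3 (0.058) or LowAhR+AD 4 (0.0979) in edgeR, nor with no filter on low counts (0.0514) or in a model of only these 8 libraries (0.0825).

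LowAhR+AD differed from Cont in both diet and DNCB, and the diet alone was compared in LowAhR against Cont. There 0 of the 9 genes and 0% of all tested genes were called by edgeR, while 2 of the 9 (Aloxe3 and Elovl1) and 2031 of all genes had an unadjusted p below 0.05. limma voom called 0 of the 9 and DESeq2 called 1, Elovl1 (adjusted p = 0.0402), beside 3.31% of all tested genes. Elovl1 stood at 269, 199, 214 and 188 CPM in Cont and at 134, 123, 143 and 158 in LowAhR, without overlap. Its edgeR change was -0.64 (SE 0.19, adjusted p = 0.124) and that of Aloxe3 was -0.91 (SE 0.37, adjusted p = 0.274). These were the 2 genes without overlap, where 11.3% of all tested genes had none. The other 7 genes lay between -0.65 (Alox12b) and 0.22 (Abhd5), and the median of the 9 was -0.37 against 0.03 over all genes.

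The step from LowAhR to LowAhR+AD, which differ in DNCB on the same diet, gave 0 calls among the 9 genes in edgeR where 12.6% of all tested genes were called, and none of the 9 separated without overlap where 18.8% of all genes did. By unadjusted p below 0.05, 2 of the 9 and 4170 of all genes passed. Alox12b came to -1.24 (SE 0.47, adjusted p = 0.0868) and Cers3, the ceramide synthase for ultra-long acyl chains, to 0.84 (SE 0.31, adjusted p = 0.0843). DESeq2 and limma voom each called Alox12b, with adjusted p = 0.0404 and 0.0474, beside 18% and 14.1% of all tested genes. So did edgeR with a block for the replicate number (adjusted p = 0.0421). Alox12b was thus called in 3 of the 9 alternatives that kept all libraries. LowAhR+AD 3 was the library with the highest Alox12b and Aloxe3 of its group. Without it edgeR called both, Alox12b at -1.93 (adjusted p = 0.00842) and Aloxe3 at -1.09 (adjusted p = 0.0425), beside 13.1% of all tested genes. Without LowAhR+AD 1, Cers3 was called at 1.08 (adjusted p = 0.0114), beside 11.4%. Each of these 3 genes was called in only 1 of the 8 refits without 1 library. At the weakest, edgeR gave Alox12b -0.96 without LowAhR 2 (adjusted p = 0.246) and Aloxe3 -0.34 without LowAhR+AD 4 (0.588). Cers3 was weakest without LowAhR+AD 2, at 0.66 (0.215). Elovl1, at 118 to 186 CPM in LowAhR+AD, differed from LowAhR by 0.04 (95% interval -0.36 to 0.44), and the median of the 9 was 0.04 as it was over all genes.

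Suprabasal keratinocytes are the differentiated cells in which the barrier lipids are made, and their markers differed widely between libraries of the DNCB groups. The summed level of 11 such markers was 15857 to 17808 CPM in Cont and 9017 to 19244 in LowAhR. In LowAhR+AD it was 935, 5903, 23831 and 4511 CPM in libraries 1 to 4, and in LowAhR+AD+BJ 4941, 10149, 9589 and 12164. Library 3 of LowAhR+AD, the only one of this group within or above the range of Cont, was also the one highest in Alox12b and Aloxe3, and library 1 of LowAhR+AD+BJ was lowest in the markers and in both lipoxygenases. In LowAhR the library lowest in these markers, 4, was lowest in both genes as well. LowAhR 1, highest of that group in the markers at 19244 CPM, had less of both genes than LowAhR 2 and LowAhR 3. LowAhR+AD 1, lowest of all 16 in the markers, was lowest of its group in Alox12b and not in Aloxe3. Against Cont, 4 of the 11 markers were called lower in LowAhR+AD and none higher, where 21.8% of all tested genes were called and 9.47% were called lower. Of the 11, 3 had positive fitted values. The mean of the list gave a log2 difference of -1.95 that missed the threshold (two-sided exact permutation p = 0.143). Loricrin (Lor), a cornified envelope protein chosen here after its values were seen, stood at 4943 to 8617 CPM in Cont and 222 to 3132 in LowAhR+AD, and was 1 of the 4 (log2 fold change -2.58, edgeR adjusted p = 0.017). The Cont libraries lay close together in the markers, at 17808, 15897, 15857 and 16824 CPM in libraries 1 to 4, and gave no clear order. Cont 3, at 15857, was the highest of all 16 in Alox12b. Cont 2, at 15897, was lowest of its group in both lipoxygenases. The part of the suprabasal markers in the lipoxygenase result was not tested.

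**Figure D2:**
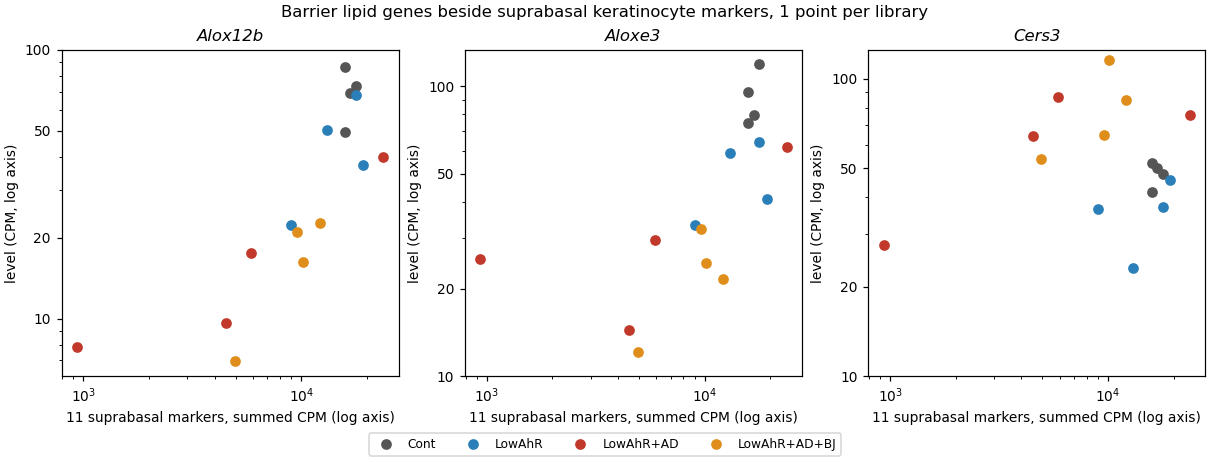
Level of Alox12b, Aloxe3 and Cers3 in CPM (vertical log axis) against the summed CPM of 11 suprabasal keratinocyte markers (horizontal log axis), 1 point per library, coloured by group. In LowAhR+AD, library 3 is highest in the markers and in both lipoxygenases, while the Cont libraries lie close together in the markers. Cers3 in the DNCB groups lies above every Cont library except in LowAhR+AD 1.

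Counted against keratins, the 9 genes stood lower or higher in LowAhR+AD depending on which keratins were taken. The 4 keratins Krt5 and Krt14 (basal) and Krt1 and Krt10 (suprabasal) took 0.414% to 0.539% of counts in Cont, 0.417% to 0.552% in LowAhR, 0.576% to 1.18% in LowAhR+AD and 0.534% to 0.874% in LowAhR+AD+BJ. Per 1000 counts of these 4 keratins, LowAhR+AD had 2.12 Alox12b counts against 8.95 in LowAhR, 3.69 Aloxe3 counts against 10.03, and 17.5 Elovl1 counts against 28.9, and these 3 genes were lower without overlap (log2 differences -2.19, -1.49 and -0.73, exact permutation p = 0.0286 each), where 24.8% of all tested genes had no overlap on this scale. Krt5 and Krt14 were themselves called higher in LowAhR+AD than in LowAhR (log2 fold changes 1.39 and 1.99, edgeR adjusted p = 0.0148 and 0.000301). Of the 7 basal keratinocyte markers that include them, 3 were called higher and 1 lower, where 12.6% of all tested genes were called. The mean of that list gave a log2 difference of 0.43 (two-sided exact permutation p = 0.114). Per counts of Krt5 and Krt14 alone, 7 of the 9 genes were lower without overlap, where 61.2% of all tested genes had none. Per counts of Krt1 and Krt10 alone, a scale added after the levels were seen, none of the 9 differed without overlap, where 1.75% of all tested genes did, and Alox12b and Aloxe3 came to 0.60 (exact permutation p = 0.486) and 1.29 (exact permutation p = 0.2). Against Cont, Alox12b and Aloxe3 came to -0.18 and 0.32 per counts of Krt1 and Krt10 (exact permutation p = 0.914 and 0.686). A change of keratins moves all genes of a comparison by the same amount, so these scales restate the change of the keratins and say nothing particular to 1 gene.

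**Figure D3:**
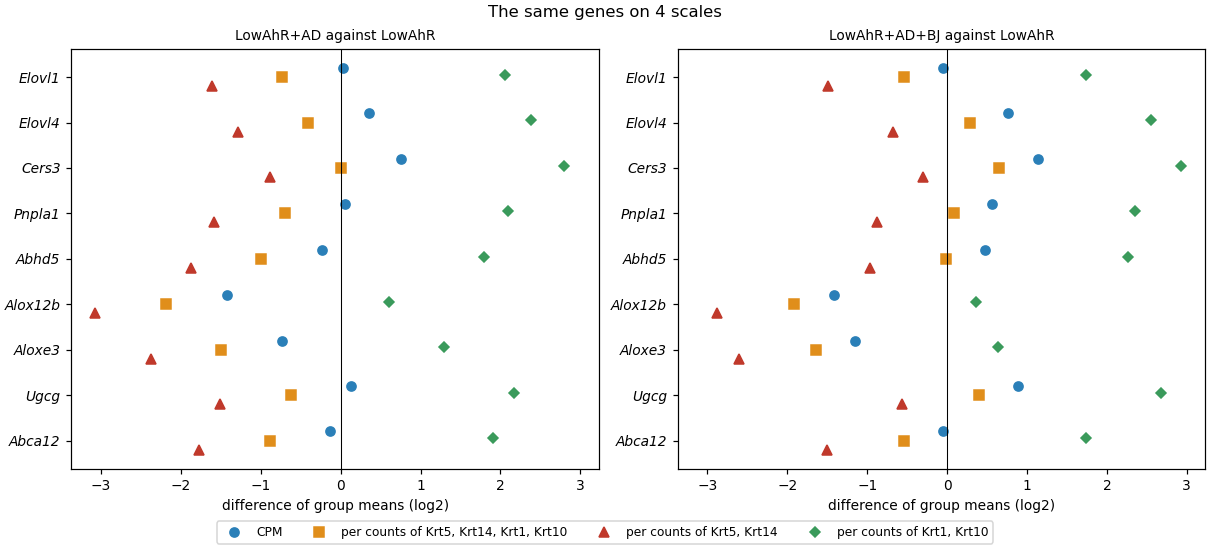
Difference of group means on the log2 scale (horizontal axis) for the 9 genes in LowAhR+AD against LowAhR (left) and LowAhR+AD+BJ against LowAhR (right), on 4 scales: CPM, per counts of 4 keratins, per counts of the basal Krt5 and Krt14, and per counts of the suprabasal Krt1 and Krt10. Every gene lies further left per basal keratin and further right per suprabasal keratin than in CPM.

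Of the 9 genes, the ceramide synthase Cers3 had the highest fitted change of any comparison, in LowAhR+AD+BJ against LowAhR. It stood at 47.9, 51.9, 41.5 and 50.2 CPM in Cont, at 45.7, 37.0, 23.0 and 36.5 in LowAhR, at 27.6, 86.9, 75.5 and 64.4 in LowAhR+AD and at 53.7, 115, 64.6 and 84.7 in LowAhR+AD+BJ. All 4 LowAhR+AD+BJ libraries were above all 8 libraries without DNCB, as were all but the first of LowAhR+AD. Elovl4, the elongase that makes ultra-long chain fatty acids, had the order LowAhR+AD+BJ, LowAhR+AD, Cont, LowAhR of its means like Cers3, at 749 to 1706 CPM in LowAhR+AD+BJ and 713 to 788 in LowAhR. Its LowAhR+AD+BJ libraries split into 1706, 1642 and 1205 CPM and 749 in library 3, which lay within LowAhR.

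LowAhR+AD+BJ against LowAhR, in which both DNCB and BJIKT differ, gave 2 calls among the 9 genes, Cers3 at 2.24 times the LowAhR level (log2 fold change 1.16 ± 0.31 SE, edgeR adjusted p = 0.0333) and Ugcg at 1.84 times (0.88 ± 0.24, adjusted p = 0.0332). Ugcg is the glucosylceramide synthase that prepares ceramides for the lamellar bodies. Over all tested genes 6.77% were called and 3.64% were called higher. Cers3, Abhd5 and Ugcg were higher and Aloxe3 lower without overlap, 4 of the 9 where 17.1% of all genes had none. An unadjusted p of 0.05 was passed by 5 of the 9 and by 3291 of the 14854 tested genes. Elovl4 came to 0.84 (SE 0.28, adjusted p = 0.0776), Alox12b to -1.41 (SE 0.47, adjusted p = 0.0787) and Aloxe3 to -1.12 (SE 0.38, adjusted p = 0.0805). DESeq2 called these 3 in addition to Cers3 and Ugcg, beside 11.3% of all tested genes, while limma voom did not call Cers3 (adjusted p = 0.0587). Both calls lay near the threshold, and neither Cers3 nor Ugcg was called by edgeR without LowAhR 3 (adjusted p = 0.11 and 0.105), LowAhR 4 (0.0542 and 0.0676), LowAhR+AD+BJ 2 (0.143 and 0.0823) or LowAhR+AD+BJ 4 (0.0853 and 0.114). Ugcg alone was lost without LowAhR 1 (0.0844) or LowAhR+AD+BJ 1 (0.0615), and Cers3 alone without LowAhR 2 (0.0778). Over the 8 refits without 1 library, the fitted changes were 0.93 to 1.31 for Cers3 and 0.76 to 1.05 for Ugcg. These refits called 2.75% to 9.75% of all tested genes. Without LowAhR+AD+BJ 3, 4 of the 9 were called, with Aloxe3 (-1.34, adjusted p = 0.0475) and Elovl4 (1.04, adjusted p = 0.0178) added. That refit called 9.75% of all tested genes. The median of the 9 was 0.48 against 0.01 over all genes.

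BJIKT itself is the difference between LowAhR+AD+BJ and LowAhR+AD. In it 0 of the 9 genes and 0% of all tested genes were called by edgeR, with 1 of the 9 and 1405 of all genes at an unadjusted p below 0.05. DESeq2 called 0 of the 9 and 17 of all genes, and limma voom called none of either. Ugcg came nearest, at 77.3, 80.3, 71.6 and 102 CPM with BJIKT against 39.0, 73.0, 40.9 and 47.9 without. Only LowAhR+AD 2, at 73.0, reached into the BJIKT range. Its edgeR change was 0.72 (SE 0.24, unadjusted p = 0.00665, adjusted p = 0.498). None of the 9 genes separated without overlap, where 5.08% of all genes did. The 95% intervals of the log2 change were -1.14 to 0.80 for Alox12b, -1.31 to 0.25 for Aloxe3 and -0.49 to 0.31 for Elovl1. Their upper ends lay below the fitted distances of 1.89, 1.49 and 0.60 by which LowAhR+AD stood under Cont. These distances have 95% intervals of their own and rest on the same LowAhR+AD libraries. The interval of the Elovl1 distance included 0.31, while those of Alox12b and Aloxe3 lay above 0.80 and 0.25. What part of each distance BJIKT made up was not tested. The sign for Alox12b, fitted at -0.17, was not stable. Its edgeR change was 0.52 without LowAhR+AD 3 (adjusted p = 0.646) and 0.089 without LowAhR+AD+BJ 1. In limma voom with all libraries it was 0.0071. For the 5 genes Cers3, Elovl4, Pnpla1, Abhd5 and Abca12 the intervals ran from -0.82 at the lowest to 1.17 at the highest and all included 0. That of Ugcg, 0.23 to 1.22, did not include 0, but the intervals are not adjusted for the number of genes.

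Against Cont, a comparison added after the levels were seen, LowAhR+AD+BJ skin had the same 3 genes called lower as LowAhR+AD, with the Cont libraries shared between both comparisons. Alox12b came to -2.06 (SE 0.48, edgeR adjusted p = 0.00571), Aloxe3 to -2.03 (SE 0.38, adjusted p = 0.00161) and Elovl1 to -0.69 (SE 0.19, adjusted p = 0.0164). Over all genes 19.9% were called and 8.62% were called lower. Elovl1 was lost without Cont 1 (adjusted p = 0.0594), LowAhR+AD+BJ 1 (0.055) or LowAhR+AD+BJ 4 (0.0524) in edgeR. Cers3, Abhd5 and Ugcg were higher without overlap, so that 6 of the 9 genes had none, where 27.7% of all genes did, but these 3 were not called (adjusted p = 0.109, 0.159 and 0.142 in edgeR).

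**Figure D4:**
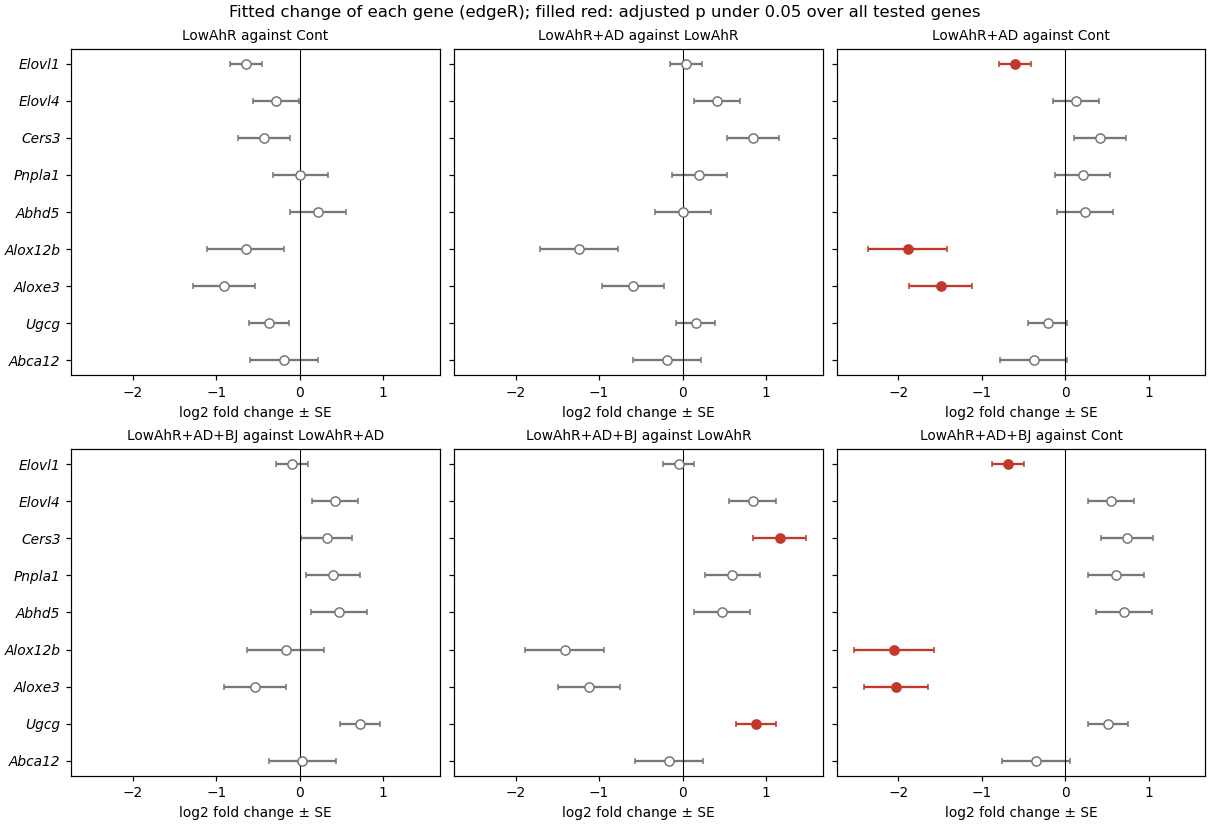
Fitted log2 fold change of each of the 9 genes (horizontal axis, points with SE) in the 6 comparisons (panels). Filled red points have an edgeR adjusted p below 0.05 over all tested genes: Alox12b, Aloxe3 and Elovl1 lower in both DNCB groups against Cont, and Cers3 and Ugcg higher in LowAhR+AD+BJ against LowAhR.

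Abhd5 and Pnpla1 act together, Abhd5 as the activator of lipases and of Pnpla1, the transacylase that adds linoleate to the ceramide. Abhd5 stood at 83.8, 68.2, 79.2 and 99.2 CPM in Cont, at 114, 98.9, 92.0 and 81.3 in LowAhR, at 26.8, 137, 138 and 86.0 in LowAhR+AD and at 117, 134, 125 and 162 in LowAhR+AD+BJ. The last group lay above all 8 libraries without DNCB, with its lowest library at 117 and the highest LowAhR library at 114. Pnpla1 stood at 20.7 to 37.9 CPM in Cont, 22.6 to 30.9 in LowAhR, 11.8 to 42.0 in LowAhR+AD and 26.9 to 52.6 in LowAhR+AD+BJ, and no pair of groups separated. Abca12, the transporter that loads lipid into lamellar bodies, overlapped in all 6 comparisons, at 6.94 to 19.0 CPM in Cont, 6.36 to 18.8 in LowAhR, 7.39 to 17.2 in LowAhR+AD and 8.67 to 13.8 in LowAhR+AD+BJ.

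LowAhR+AD 1 was the lowest library of its group in 6 of the 9 genes and LowAhR+AD+BJ 1 in 7 of the 9. These were the libraries with the lowest suprabasal marker sum of their groups. Cont 2, also lowest in 6 of the 9 genes, was close to the lowest (15897 CPM against 15857 in Cont 3). In LowAhR+AD 1, Krt10 stood at 20.2 CPM and Krt5 at 6185 CPM, against 1714 to 2606 and 917 to 1442 CPM in Cont.

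Of 65 further genes of the pathway, placed in 7 lists, all were tested. None was called by edgeR in LowAhR against Cont or in LowAhR+AD+BJ against LowAhR+AD. An unadjusted p below 0.05 was found for 16 and 9 of them, and for 2031 and 1405 of all tested genes. DESeq2 called 3 and 0, beside 3.31% and 0.114% of all tested genes, and limma voom 0 and 0. LowAhR+AD against LowAhR gave 14 calls, 5 higher and 9 lower, 12.6% of all genes being called. A model of only these 8 libraries gave 4 calls, with 5.49% of all genes called. The median of the 65 was -0.15 against 0.04 over all genes. Against Cont, LowAhR+AD gave 5 higher and 13 lower (21.8% of all genes called) and LowAhR+AD+BJ 11 higher and 12 lower (19.9%), and LowAhR+AD+BJ against LowAhR gave 7 higher and 6 lower (6.77%).

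In fatty acid elongation and activation, 1 of 11 genes was higher and 3 lower in LowAhR+AD than in LowAhR. Elovl5, an elongase of polyunsaturated fatty acids, went from 333 to 451 CPM in LowAhR to 78.8 to 251 in LowAhR+AD (log2 fold change -1.25, edgeR adjusted p = 0.0116). Elovl6, which lengthens palmitate, fell by 1.08 (adjusted p = 0.0184), and Slc27a4, the fatty acid transport protein of the epidermis, rose by 0.98 (adjusted p = 0.0225). The call of Elovl6 was lost without 2 and that of Slc27a4 without 4 of the 8 libraries in turn. Elovl1 and Elovl4 were not called in this comparison.

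In ceramide core synthesis 2 of 13 genes were higher and 1 lower. Degs2, which makes phytoceramides, had the largest fitted change of the 65 genes in this comparison, from 7.85 to 12.1 CPM in LowAhR to 39.3 to 86.8 in LowAhR+AD (2.55, edgeR adjusted p = 0.000287), and stood at 28.5 to 94.2 CPM in LowAhR+AD+BJ. Sptlc1, a subunit of the enzyme that opens the pathway, rose by 0.89 (adjusted p = 0.049), a call lost in 6 of 9 alternatives that kept all libraries and without 7 of the 8 libraries in turn. Cers5, a ceramide synthase for long acyl chains, fell by 1.91 (adjusted p = 0.000968), opposite in sign to the 0.84 of Cers3, which was not called in this comparison.

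None of the 6 genes of omega-hydroxylation and the steps after the lipoxygenases was called, nor any of 7 lamellar body genes. In glucosylceramide and sphingomyelin processing 1 of 10 genes was called, the sphingomyelin synthase Sgms1, which fell by 1.47 (edgeR adjusted p = 0.00441). All 10 genes of neutral lipid stores and lipases had negative fitted values (median -1.13) and 3 were called lower, Dgat2 (-1.20, adjusted p = 0.0137), Lipk (-1.79, adjusted p = 0.0196) and Pnpla3 (-2.26, adjusted p = 0.0383). Lipk was lost without 2 and Pnpla3 without 6 of the 8 libraries in turn. Adipocytes express several genes of this list, and 8 of the 9 adipocyte markers were called lower in the same comparison, where 923 of 14854 tested genes were called lower. The part of adipocytes in it was not tested. Of 8 transcription factors of the granular layer, the nuclear receptor Ppard rose by 1.18 (adjusted p = 0.0136), Ovol1 rose by 1.00 (adjusted p = 0.0217) and Klf4, a factor of barrier formation, fell by 0.90 (adjusted p = 0.023), the last 2 being lost without 3 of the 8 libraries in turn. Klf4 was also called lower in LowAhR+AD against Cont (-1.58, edgeR adjusted p = 0.000444), in LowAhR+AD+BJ against Cont (-1.54, adjusted p = 0.000551) and in LowAhR+AD+BJ against LowAhR (-0.87, adjusted p = 0.0402).

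**Figure D5:**
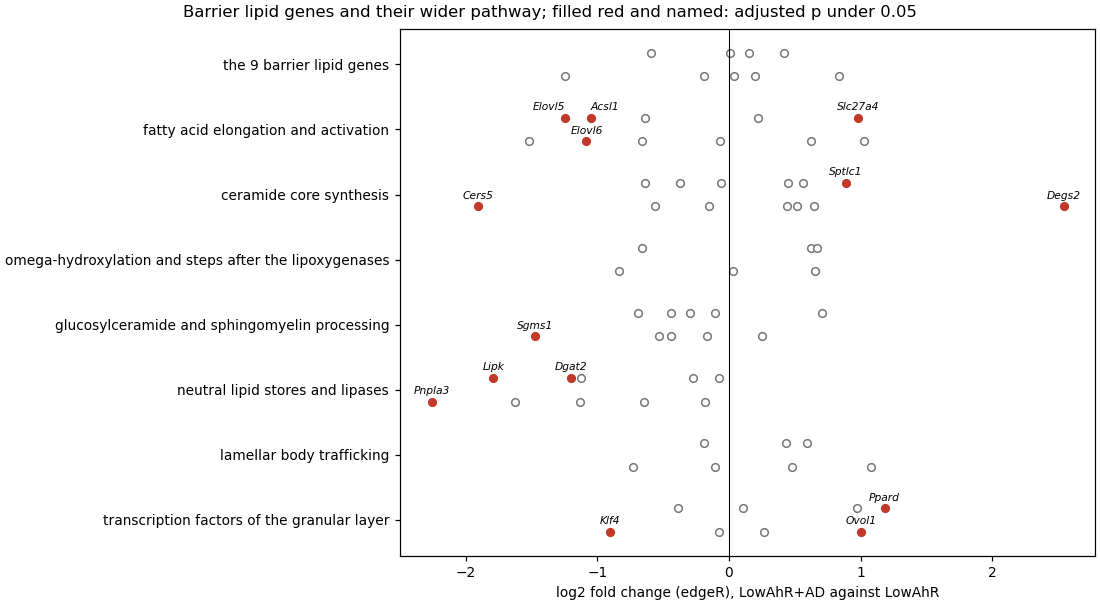
Fitted change between LowAhR and LowAhR+AD on the log2 scale (horizontal axis, positive where LowAhR+AD is higher) of the 9 barrier lipid genes and of 65 further genes in 7 lists (rows), 1 point per gene. Filled red points with names have an edgeR adjusted p below 0.05: none of the 9 genes, and 14 of the 65, with Degs2 furthest right and Pnpla3 furthest left.

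The tested genes whose levels followed each barrier gene most closely over the 16 libraries were ranked by the root mean square difference of centred log2 CPM, a description with no test. They were Fndc9 (0.32) and Agpat4 (0.37) for Alox12b, Cobl (0.38) and Nrtn (0.39) for Aloxe3, Ptbp3 (0.29) and Taf13 (0.32) for Cers3, and Taok1 (0.17) and Reep3 (0.18) for Elovl1. Elovl4 had Rdh1 (0.22) and the integrin gene Itgb1 (0.22), Ugcg had Zfp143 (0.21) and Ppapdc2 (0.22), and Abca12 had Ggps1 (0.29) and Osbpl5 (0.34). Pnpla1 had Tmem230 (0.26). Abhd5 had Mxd1 (0.25) and Spink5 (0.25), the latter encoding a protease inhibitor of the upper epidermis. The 9 genes were left out of the ranking.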

How the data were processed

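Dorsal skin RNA was sequenced from the 3′ end of transcripts (QuantSeq, NextSeq 500) in 16 libraries. Per the submitters' processing notes, the authors aligned reads with Bowtie2 to mm10 and used bedtools, versions not given in the sources used here; the deposited files hold 1 whole-number read count per gene and library. Of 23282 rows, 35 symbols had several rows and 0 rows named no gene. Totals were 7080508 to 13467477 counts, and counting error is 1 part of the spread between libraries.

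Here all 16 libraries entered 1 edgeR 4.0.16 quasi-likelihood model of the group (R 4.3.3, TMM factors 0.892 to 1.16, filterByExpr with a minimum count of 10 and total of 15), with Benjamini-Hochberg adjustment over 14854 rows. SE is the absolute log2 fold change over the square root of F. Single levels were compared by two-sided exact permutation of log2 CPM (prior count 2, scipy 1.17.1), with 54 gene and comparison pairs and p unadjusted, and ratios to keratin counts had 0.5 added to both. Alternatives were limma 3.58.1 voom, DESeq2 1.42.0, upper-quartile or RLE factors, other filters, other models and left-out libraries. The script was tested on simulated data. Replicate pairs differed beyond counting noise (chi-square per degree of freedom 16.5 to 295), so all counted as separate samples.

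The genes, pathway lists and markers were chosen with earlier results of these data known. Named were all 9 genes, at most 3 called genes per pathway list of lowest p in LowAhR+AD against LowAhR, and the 2 nearest patterns per gene, of which 1 for Pnpla1 is not reported here. Lor, Krt1, Krt10, Krt5, Krt14, Cdc20 and A730085K08Rik were named after their values were seen.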

Additional observations from a re-analysis of the deposited data

Results flagged for a closer look

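Pnpla1 in LowAhR+AD 1, at a log2 CPM of 3.58 (11.8 CPM), stood apart from the other 3 libraries of its group at 33.9 to 42.0 CPM. Its gap to the nearest library was 0.83 of the range of the group, just past Dixon's 95% critical value for 4 samples. This was 1 of 36 gene and group combinations examined, and chance gives about 1 in 20. The same library was lowest of its group in 6 of the 9 genes.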

How the results depend on the processing

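Every change of the 9 genes was refitted under 9 alternatives that kept all libraries (486 refits, of which 459 kept direction and side of the threshold) and without each library in turn (432 refits, of which 381 did). The cause of the differences below was not tested.

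With all libraries kept, DESeq2 called 1 of the 9 genes and 3 of the 65 pathway genes in LowAhR against Cont, 1 gene in LowAhR+AD against LowAhR, and 5 genes and 21 pathway genes in LowAhR+AD+BJ against LowAhR. Of all tested genes DESeq2 called 3.31%, 18% and 11.3% in these comparisons, against 0%, 12.6% and 6.77% in the main edgeR fit. limma voom called 1 gene in LowAhR+AD against LowAhR and 1 in LowAhR+AD+BJ against LowAhR, beside 14.1% and 6.77% of all tested genes. Models of only the 8 libraries compared called 1 pathway gene in LowAhR against Cont, 4 in LowAhR+AD against LowAhR, 4 of the 9 genes in LowAhR+AD+BJ against LowAhR and 5 in LowAhR+AD+BJ against Cont. In the same order these models called 1.84%, 5.49%, 8.66% and 26.1% of all tested genes. With at least 10 counts in every library, 4 genes and 20 pathway genes were called in LowAhR+AD+BJ against LowAhR, beside 12.1% of all tested genes.

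Per counts of Krt5 and Krt14 alone, in place of 3, 3, 3 and 3 per 4 keratins, 7 of the 9 genes had an exact permutation p below 0.05 in LowAhR+AD against LowAhR, 9 in LowAhR+AD against Cont, 5 in LowAhR+AD+BJ against LowAhR and 9 in LowAhR+AD+BJ against Cont. Of all tested genes, 61.2%, 59.9%, 56.4% and 55.2% had no overlap on that scale. Per counts of Krt1 and Krt10 alone, added after the data were seen, the numbers were 0, 0, 5 and 5 in the same order (1.75%, 4.75%, 22.4% and 29.2% of all tested genes), and 0 in place of 2 in LowAhR against Cont (6.14%). The prior count of 0.5 moved no such count.

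Signs of small, uncalled changes turned. Abhd5 in LowAhR+AD against LowAhR became -0.022 with RLE factors, -0.045 with upper-quartile factors, -0.022 in DESeq2, -0.24 in limma voom, -0.021 with at least 10 counts in every library, -0.0020 in the model of 8 libraries and -0.084 with the replicate block. Elovl1 in the same comparison became -0.011 with upper-quartile factors, Abhd5 in LowAhR+AD against Cont -0.018 in limma voom, Alox12b in LowAhR+AD+BJ against LowAhR+AD 0.0071 in limma voom, and Pnpla1 in LowAhR against Cont -0.010 with the replicate block.

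Without 1 library the number of the 9 genes called ran from 0 to 2 in LowAhR+AD against LowAhR, 2 to 3 in LowAhR+AD against Cont, 0 to 4 in LowAhR+AD+BJ against LowAhR and 2 to 4 in LowAhR+AD+BJ against Cont, and stayed 0 in the other comparisons. In the same order, the share of all tested genes called in these 4 ran from 7.39% to 13.2%, 16.1% to 23.2%, 2.75% to 9.75% and 13.2% to 20.2%. That of the 65 pathway genes, refitted after the results were seen, ran from 0 to 1 in LowAhR against Cont, 8 to 19 in LowAhR+AD against LowAhR, 4 to 16 in LowAhR+AD+BJ against LowAhR and 12 to 21 in LowAhR+AD+BJ against Cont. Against LowAhR, the count in LowAhR+AD fell to 8 without LowAhR 1 or LowAhR 2, and that in LowAhR+AD+BJ to between 4 and 6 without LowAhR 1, 2 or 3 or LowAhR+AD+BJ 1, 2 or 4. Against Cont, that in LowAhR+AD+BJ fell to between 12 and 15 without Cont 2, Cont 3 or LowAhR+AD+BJ 2. Signs turned in LowAhR against Cont for Pnpla1 (-0.10 to 0.21) and Abca12 (-0.43 to 0.036), in LowAhR+AD against LowAhR for Abhd5 (-0.21 to 0.31), Elovl1 (-0.11 to 0.13), Abca12 (-0.46 to 0.049) and Ugcg (-0.076 to 0.33), and in LowAhR+AD against Cont for Elovl4 (-0.13 to 0.25). They also turned in LowAhR+AD+BJ against LowAhR+AD for Alox12b (-0.43 to 0.52), Elovl1 (-0.17 to 0.054) and Abca12 (-0.13 to 0.31), and in LowAhR+AD+BJ against LowAhR for Elovl1 (-0.10 to 0.018) and Abca12 (-0.38 to 0.080).

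Replicate numbers did not pair the libraries (correlations of same-numbered deviations -0.05 to 0.17). With the replicate block, 1 of the 9 genes was called in LowAhR+AD against LowAhR, Alox12b (-1.42, adjusted p = 0.0421), beside 11.4% of all tested genes. The counts in the other comparisons stayed within 1.5 times. Of the calls among the 9 genes in edgeR, those of Alox12b and Aloxe3 against Cont held without each library in turn, and each of the others was lost without at least 1.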
